A study of Arabidopsis thaliana with 6 samples.

Results

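The type I MADS genes PHE1 (AT1G65330), PHE2 (AT1G65300) and AGL102 (AT1G47760) were among the genes that the authors listed as having more RNA in mrg1 mrg2 seedlings than in Col-0 seedlings. They are 3 of the 531 genes in that list and of 552 listed in both directions. The 531 genes were 2.31% of the 22995 genes in the authors' test, a number inferred from the p-values and adjusted p-values. The members were chosen from the table of this comparison, so their difference between the genotypes is described here without a test. The tissue was leaf and stem of Arabidopsis thaliana seedlings 12 days old, from plants kept on soil at 22 °C in days of 16 h of light and 8 h of dark and harvested at hour 8 of the light period. The first genotype was a mutant in both MRG1 and MRG2 (mrg1 mrg2, in the Columbia-0 background; its alleles are not named in the labels) and the other was the Col-0 wild type, which carries both genes. Each genotype had 3 libraries, and the labels say that the libraries came from 3 independent experiments.

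MADS-domain proteins are transcription factors that bind DNA through a conserved domain near their N-terminus. Type I members are short, with few introns, and many are known for acting in the female gametophyte and the endosperm, the tissue that feeds the embryo. PHE1 (PHERES1) is a textbook imprinted gene: in the endosperm it is transcribed mainly from the paternal copy, its maternal copy is held down by the Polycomb repressive complex that contains MEDEA, and DNA methylation downstream of the gene takes part. The MRG proteins carry a chromodomain that binds methylated histone H3 in transcribed genes, and MRG2 and MRG1 work with histone acetyltransferases.

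PHE1 and PHE2 are an inverted pair of near copies on chromosome 1, and AGL102 lies elsewhere on the same chromosome. In the TAIR10.1 annotation, PHE1 is chr1:24266257-24267336 on the reverse strand, with 1 exon and a protein of 279 residues. PHE2 is chr1:24254929-24255857 on the forward strand, with 1 exon and a protein of 278 residues. AGL102 is chr1:17572414-17573373 on the forward strand, with 2 exons and a protein of 184 residues.

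PHE1 and PHE2 could be compared base by base. Within the coding sequences 732 of 825 aligned bases were identical (88.7%). The first 120 coding bases, which encode part of the DNA-binding MADS domain, differ at 17 positions, shown in capitals (PHE1 chr1:24267201-24267320, reverse; PHE2 chr1:24254929-24255048, forward).
PHE1: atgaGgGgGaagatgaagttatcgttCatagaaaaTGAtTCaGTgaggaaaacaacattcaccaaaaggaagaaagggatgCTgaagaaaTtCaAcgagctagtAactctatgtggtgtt
PHE2: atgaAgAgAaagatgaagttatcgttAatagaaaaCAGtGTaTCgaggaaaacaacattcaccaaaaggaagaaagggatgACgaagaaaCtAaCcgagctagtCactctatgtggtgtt
The end of the coding sequence is where the copies cannot be told apart. There a run of 120 bases is identical, shown here in lower case with its flanks; capitals mark bases that differ or are missing in the other copy (PHE1 chr1:24266483-24266614, reverse; PHE2 chr1:24255620-24255763, forward).
PHE1: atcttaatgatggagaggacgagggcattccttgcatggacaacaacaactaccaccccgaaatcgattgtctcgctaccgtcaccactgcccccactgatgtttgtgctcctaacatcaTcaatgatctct
PHE2: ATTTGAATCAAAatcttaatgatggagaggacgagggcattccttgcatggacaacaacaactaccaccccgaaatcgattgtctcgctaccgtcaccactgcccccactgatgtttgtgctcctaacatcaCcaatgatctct
Reads in this study were 50 bases long. Of 1031 windows of 50 bases in the PHE1 exon, 71 (6.89%) occurred exactly elsewhere in the genome, and of 880 windows in the PHE2 exon, 71 (8.07%) did; each of these matches lay in the other PHE gene. With up to 2 mismatches allowed the shares were 15.9% for PHE1 and 18.6% for PHE2, again with all matches in the partner. AGL102 had no such window among 708, exactly or with up to 2 mismatches; windows across its exon junction were not searched. How the authors' counting treated reads that match both PHE genes is not given in the sources used here, so the split of reads between PHE1 and PHE2 is uncertain to that extent.

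**Figure D1:**
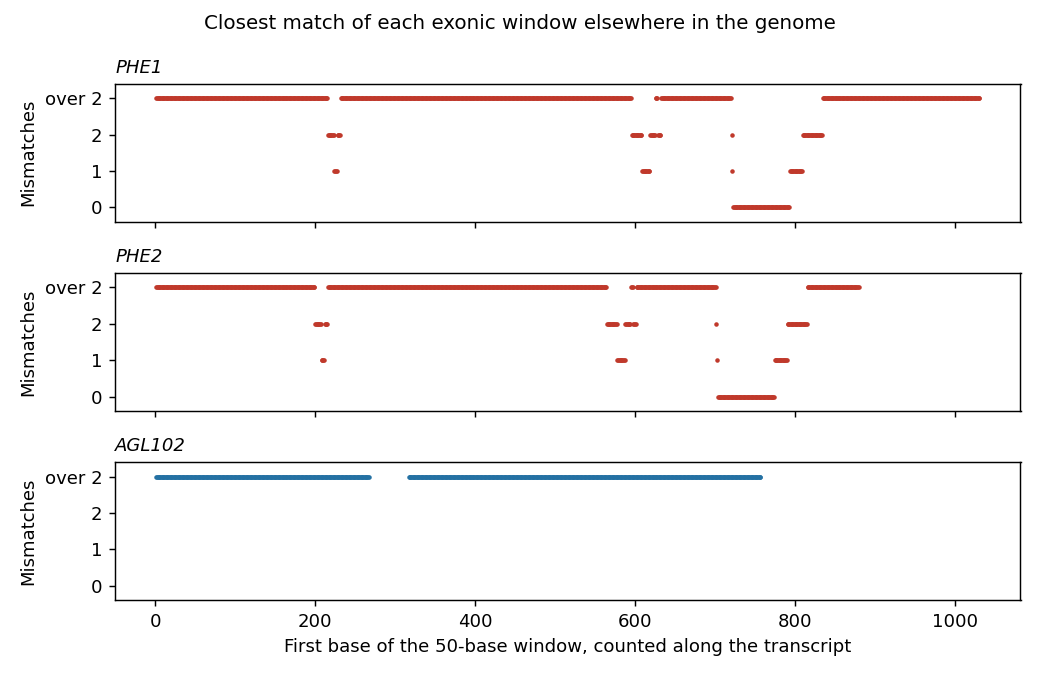
Each point is a window of 50 bases inside an exon of PHE1, PHE2 or AGL102, placed by its first base along the transcript; the y axis gives the mismatches of its closest match elsewhere in the genome, with "over 2" for none within 2. Most windows of PHE1 and PHE2 and all of AGL102 lie at the top, and the windows with 0 mismatches sit in the run near the end of both PHE coding sequences.

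The labels were checked on MRG2 (AT1G02740, chr1:599330-602199), 1 of the 2 mutated genes. Its raw counts were 188, 111 and 96 in mrg1 mrg2 and 437, 380 and 403 in Col-0, so each mutant library held fewer MRG2 reads than each Col-0 library. MRG1 (AT4G37280) was not listed, so its part of the label was not checked. Counts over all listed genes summed to 372415 to 432369 in mrg1 mrg2 and to 194996 to 253738 in Col-0; the sums depend on which genes were listed and say nothing of depth, for which the labels give only a minimum.

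PHE1 had low but clear counts in Col-0 and the highest counts of the 3 genes in the mutant. Raw counts were 222, 212 and 195 in mrg1 mrg2 replicates 1, 2 and 3, and 54, 27 and 18 in Col-0 replicates 1, 2 and 3. The lowest normalized count (raw count divided by the library's size factor) in the mutant was 3.72 times the highest in Col-0, so the groups did not overlap. The normalized count averaged 210 ± 19.7 in mrg1 mrg2 and 32.9 ± 18.2 in Col-0 (SD, n = 3 each), a ratio of 6.38. The authors' deposited table gave PHE1 a log2 fold change of 2.67 (mrg1 mrg2 over Col-0) with an adjusted p of 1.38e-10.

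PHE2 followed in the same direction at a much lower level. PHE2 raw counts were 29, 42 and 32 in mrg1 mrg2 replicates 1, 2 and 3, and 7, 9 and 9 in Col-0 replicates 1, 2 and 3. All 3 mutant libraries were above all 3 Col-0 libraries, and the lowest normalized count in the mutant was 3.27 times the highest in Col-0. Normalized counts averaged 34.1 ± 4.50 in mrg1 mrg2 and 8.35 ± 1.28 in Col-0 (SD, n = 3 each), a ratio of 4.09. In the authors' deposited table the log2 fold change of PHE2 was 2.03 and its adjusted p was 9.92e-04. Counting error is large here: 95% Poisson intervals of the raw counts, which cover counting error only, ran from 19.4 to 41.6 for the lowest mutant library and from 4.12 to 17.1 for the highest Col-0 libraries.

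AGL102, a type I gene of another branch, was higher in the mutant, with a ratio of means between those of PHE2 and PHE1. Its raw counts were 117, 152 and 137 in mrg1 mrg2 replicates 1, 2 and 3, and 19, 21 and 44 in Col-0 replicates 1, 2 and 3. The groups did not overlap, with the lowest normalized mutant count at 2.83 times the highest Col-0 count. AGL102 averaged 135 ± 10.6 normalized counts in mrg1 mrg2 and 27.9 ± 13.4 in Col-0 (SD, n = 3 each), a ratio of 4.83. Not every pair of libraries with the same replicate number kept AGL102 between PHE2 and PHE1. The authors' deposited table listed AGL102 at a log2 fold change of 2.27 and an adjusted p of 1.40e-08. Non-overlapping groups are what the choice of genes would give: 530 of the 531 genes listed as higher (99.8%) showed them.

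**Figure D2:**
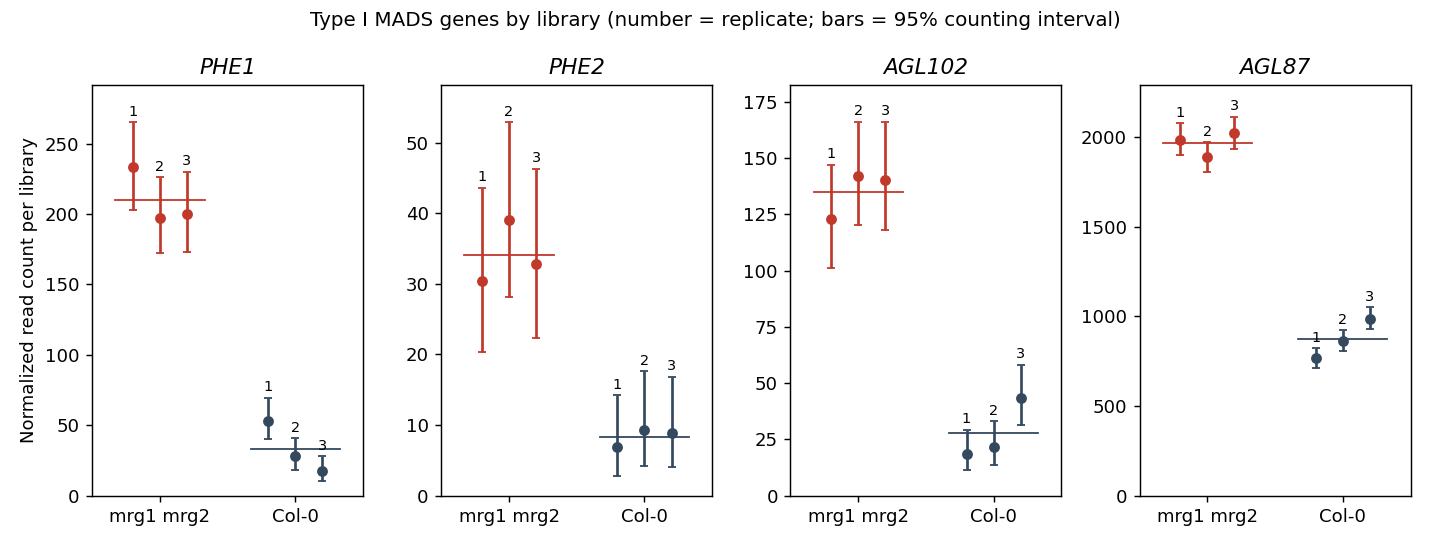
Points are normalized read counts of single libraries (y axis, a scale of its own in each panel, starting at 0) for PHE1, PHE2, AGL102 and the related gene AGL87, with mrg1 mrg2 left of Col-0; the number above a point is its replicate, bars are 95% Poisson intervals for counting error and horizontal lines are genotype means. In every panel the 3 mrg1 mrg2 points lie above the 3 Col-0 points, and PHE1 and AGL102 spread most in Col-0, where replicate 1 is highest for PHE1 and replicate 3 for AGL102.

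The Col-0 libraries disagreed about PHE1 and AGL102, and not in the same way. PHE1 had its highest Col-0 value in replicate 1 (54 reads, 95% Poisson interval 40.6 to 70.5) and its lowest in replicate 3 (18 reads, 10.7 to 28.4). For AGL102 the highest Col-0 value was in replicate 3 (44 reads, 32.0 to 59.1) and the lowest in replicate 1 (19 reads, 11.4 to 29.7). In both genes the 2 intervals do not overlap. The coefficient of variation over Col-0 libraries was 55.4% for PHE1 and 48.2% for AGL102, against 17.4% and 18.9% from counting alone at those means. Among the 106 genes listed as higher with a Col-0 mean of 15 to 60 normalized counts, a range chosen after the values were seen, the median was 21.9%, and 4 genes exceeded PHE1 and 10 exceeded AGL102. Over the mutant libraries the coefficient of variation was 9.37% for PHE1, 7.88% for AGL102 and 13.2% for PHE2. Counts were higher in the mutant, which lowers the part of the spread due to counting. The mutant median of those 106 genes was 15.1%, but they were matched on the Col-0 count and not on the mutant count. PHE2, with a Col-0 mean of 8.35, is not among them. Col-0 replicate 1 was the highest Col-0 library for 254 of the 527 higher genes that had reads in Col-0, and replicate 3 for 127.

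With this spread, the size of the increase differed between replicate numbers. That libraries with the same number belong together was inferred from correlations given with the processing. Taken between libraries with the same replicate number, the log2 ratio (normalized count + 1, mrg1 mrg2 over Col-0) of PHE1 was 2.11, 2.78 and 3.42 in replicates 1, 2 and 3. That of AGL102 was 2.65, 2.65 and 1.67, with its smallest value in the replicate where PHE1 had its largest. PHE2 gave 1.99, 1.96 and 1.78. Its Col-0 counts were so low (7 reads in replicate 1, 95% Poisson interval 2.81 to 14.4) that these close values do not show a steadier change. The added count of 1 also damps ratios at such counts. Without Col-0 replicate 1 the log2 ratio of means of PHE1 was 3.20, and without Col-0 replicate 3 that of AGL102 was 2.74, against 2.67 and 2.27 with all libraries.

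**Figure D3:**
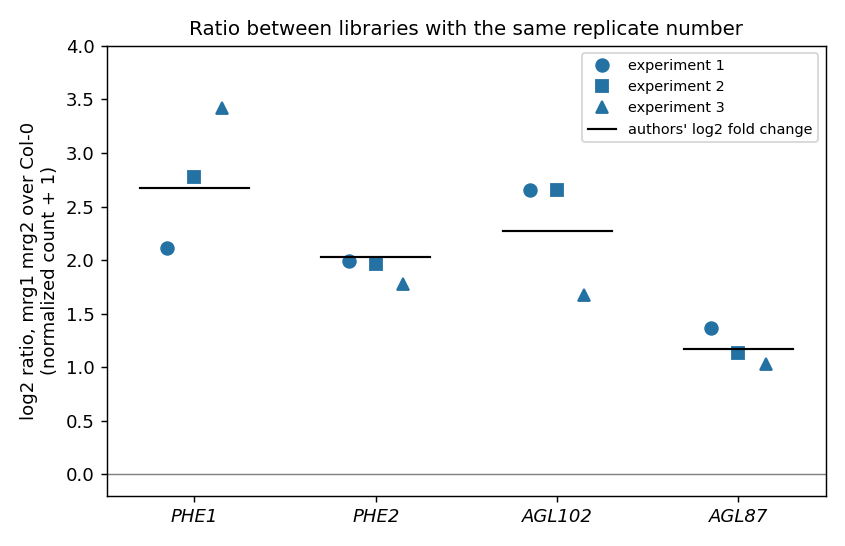
The y axis is the log2 ratio of mrg1 mrg2 over Col-0 (normalized count + 1) between libraries with the same replicate number. Each replicate number has its own marker shape and is called experiment in the legend. Black lines are the log2 fold changes of the authors' deposited table. All ratios lie above 0. PHE1 and AGL102 spread over more than 0.9 on the log2 scale, and PHE2, which rests on few Col-0 reads, spans 1.78 to 1.99.

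Per length of exon, PHE1 and AGL102 were at similar levels and PHE2 was the lowest. Normalized counts per kb of exon were 194 for PHE1, 36.7 for PHE2 and 167 for AGL102 in mrg1 mrg2. In Col-0 the levels per kb were 30.5 for PHE1, 8.98 for PHE2 and 34.6 for AGL102. PHE1 and AGL102 swapped places between libraries, since their ratio of levels per kb ran from 1.04 to 1.42 in the mutant and from 0.305 to 2.12 in Col-0. PHE2 was below both in each of the 6 libraries.

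Within the PHE pair, PHE2 gave 14.1% of the 732 reads assigned to either gene in the mutant (95% exact binomial interval 11.6 to 16.8%) and 20.2% of 124 in Col-0 (13.5 to 28.3%). In mrg1 mrg2 replicates 1, 2 and 3 the PHE2 share was 11.6%, 16.5% and 14.1%. In Col-0 replicates 1, 2 and 3 it was 11.5%, 25.0% and 33.3%, on 61, 36 and 27 reads. The shares of the genotypes overlapped, and these intervals cover counting error only. With the counts of PHE1 and PHE2 added together, the log2 ratio of means was 2.57. The sum does not depend on how shared reads were divided, but would if they were dropped or counted for both genes. Its direction was fixed in advance, because both genes were picked for being higher, and most of its reads were assigned to PHE1. Whether part of the PHE2 increase came from PHE1 reads was not tested.

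Among the 531 genes listed as higher, the 3 genes lay toward the top by size of change. By the log2 fold change in the authors' deposited table, PHE1 ranked 43rd, AGL102 60th and PHE2 74th, where the median of the list was 1.08 and its smallest value 0.59. By adjusted p the ranks were 24 for PHE1, 40 for AGL102 and 203 for PHE2. Among the 106 genes listed as higher with 15 to 60 normalized counts in Col-0, 3 had a larger log2 fold change than PHE1 and 6 a larger one than AGL102 in the authors' deposited table, with a median of 1.28. PHE2, with a Col-0 mean of 8.35, lies below that range and was not compared with listed genes of its own level.

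**Figure D4:**
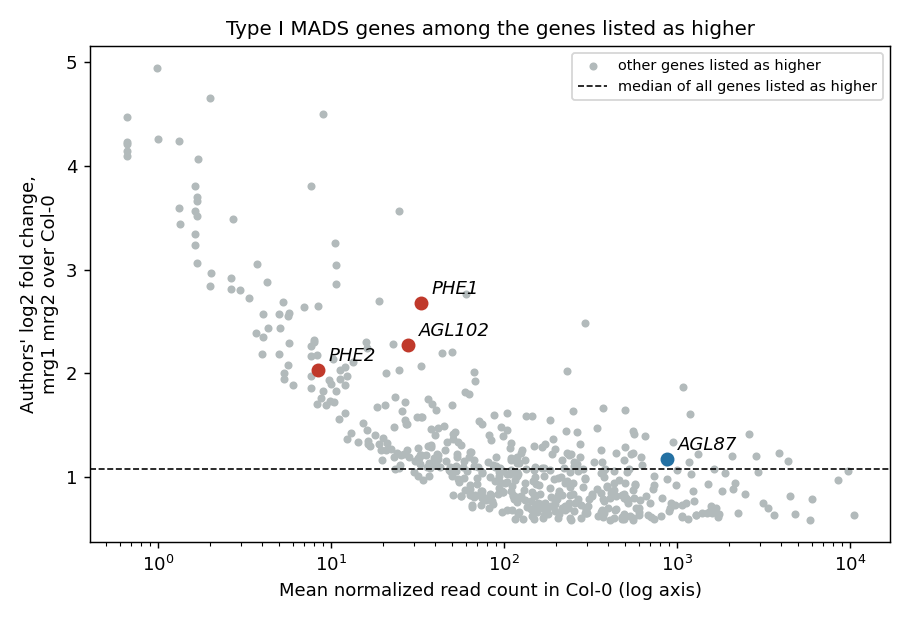
Each point is a gene listed as higher, with its mean normalized count in Col-0 on the x axis (log axis) and the authors' log2 fold change of mrg1 mrg2 over Col-0 on the y axis; the 4 genes without a Col-0 read cannot be drawn. PHE1 and AGL102, in red, lie among the highest points at their Col-0 count, PHE2 lies within the low-count genes, and AGL87, in blue, lies near the dashed median of 1.08.

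A further type I gene, AGL87 (AT1G22590, chr1:7981722-7984334), was listed as higher and was far more abundant. AGL87 raw counts were 1896, 2029 and 1972 in mrg1 mrg2 replicates 1, 2 and 3, and 779, 835 and 1004 in Col-0 replicates 1, 2 and 3. The groups did not overlap, and the log2 ratios within replicates 1, 2 and 3 were 1.37, 1.13 and 1.03. The normalized count of AGL87 averaged 1966 ± 69.0 in mrg1 mrg2 and 872 ± 112 in Col-0 (SD, n = 3 each), a ratio of 2.25, and the authors' deposited table gave a log2 fold change of 1.17 with an adjusted p of 2.93e-15. In level per kb of exon, AGL87 was 4.14 times PHE1 in mrg1 mrg2 and 11.7 times PHE1 in Col-0.

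Of 61 type I MADS names searched, 4 were listed as higher (6.56%), 0 as lower and 57 were not listed. For comparison, 2.31% of the 22995 genes in the authors' test (number inferred) were listed as higher. The share was 1.84% of the 27444 nuclear protein-coding genes of the annotation. Of these 4, 3 are the genes that were picked for being listed; of the other 58 names 1 was listed (1.72%), a share near the background. Gene identifiers were found for 52 of the 61 names, and type I genes without reads may not have been in the authors' test at all. AGL23, known for a role in the female gametophyte, lies in the same stretch of chromosome 1 as PHE1 and was not listed, nor were AGL62 and AGL80, regulators of endosperm and central cell development. All 4 listed genes are on chromosome 1, which holds 17 of the type I genes with a position, while chromosome 5 holds 23 and none of the listed ones. The share of all listed genes on each chromosome was not counted. Since 3 of the 4 were picked, and PHE1 and PHE2 are neighbouring near copies, the count shows no pattern by chromosome.

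In global alignments, PHE1 and PHE2 had 216 identical residues in 283 columns (76.3%). After PHE2, the type I protein closest to PHE1 was AGL90 at 39.1% identity, followed by AGL80 at 35.8% and AGL86 at 35.3%, none of them listed. AGL102 was closest to AGL59 at 32.2%, with AGL58 at 29.4% next, and neither was listed. AGL102 had 18.7% identity with PHE1 and 20.1% with PHE2. A gene that is not listed may still differ, since, by the inferred ranks, 195 genes whose adjusted p would fall inside the range of the tables are missing from them and were not analysed here.

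The PHE genes are 10399 bases apart and enclose XTH17, a cell wall xyloglucan enzyme gene, and CBSX6, a gene of a CBS-domain protein; neither was listed. Outside the pair, AT1G65295 and mtACP2 (a mitochondrial acyl carrier protein gene) on the PHE2 side and CYP96A3 (a cytochrome P450 gene) and AT1G65342 on the PHE1 side were not listed. Around AGL102, PEX11A (a peroxisome division gene), AT1G47740, AT1G47765 and AT1G47770 were not listed. So few neighbours with none listed lie near the background of 1.84% of nuclear protein-coding genes listed as higher. The nearest other gene listed as higher was 191 kb from PHE1 (AT1G65760) and 42.7 kb from AGL102 (HXK3, a hexokinase gene).

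**Figure D5:**
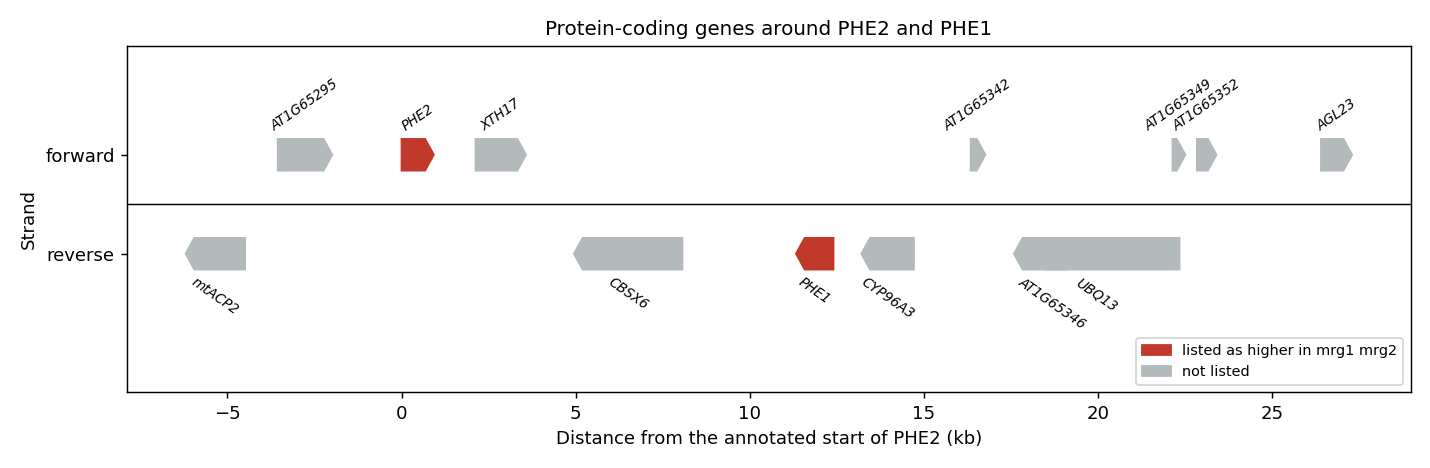
Arrows are annotated protein-coding genes around PHE2 and PHE1, by distance from the annotated start of PHE2 (x axis, kb) and strand (y axis); red marks genes listed as higher in mrg1 mrg2 and grey genes that were not listed. PHE2 and PHE1 point toward each other and are the only red arrows.

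The endosperm, chromatin and other MADS lists are small, and with 2.31% of tested genes listed as higher most would hold few or no listed genes at the background share. Of 28 endosperm and imprinted genes, 1 was listed as higher, PHE1, which was picked for being listed, and 0 were lower; MEA, FIS2, FWA, AGL36 and AGL62 were among the 27 not listed. A list of 28 Polycomb and other chromatin regulators included the Polycomb subunits CLF, SWN, FIE and MSI1, and also MRG1, MRG2, HAM1 and HAM2. Of these 28, 0 were higher and 1 was lower, the mutated MRG2. Of 9 DNA methylation genes, DML3 (AT4G34060), a DNA demethylase of the family of DEMETER, was higher, with 497 ± 34.7 normalized counts in mrg1 mrg2 and 192 ± 10.7 in Col-0 (SD, n = 3 each) and a log2 fold change of 1.37 in the authors' deposited table; the other 8 were not listed, and 1 gene in so short a list says nothing of the list. Of 45 type II MADS genes, 0 were higher and 1 was lower, the flowering repressor FLC, with 52.7 ± 10.4 normalized counts in mrg1 mrg2 and 129 ± 12.8 in Col-0 (SD, n = 3 each). For lower genes the background was 0.0913% of the 22995 genes tested (number inferred).

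Of 18 seed genes, including the storage protein genes CRA1 and CRU3 and the embryo regulators LEC1 and FUS3, 0 were listed in either direction. The same held for 14 flower and pollen genes and 6 root genes. Against 2.31% of tested genes listed as higher and 0.0913% as lower, lists of these sizes with 0 listed genes lie near the background and show nothing about other organs. Their levels were not analysed here, and the labelled tissue was not checked against markers of leaf or stem, since values were used only for listed genes. In this mixed leaf and stem tissue, more RNA per cell and more cells with the RNA cannot be told apart.

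The profiles of the 3 genes over the 6 libraries were compared with those of the other listed genes. These correlations of log2(normalized count + 1) mostly reflect the shared difference between genotypes, for which the genes were selected, and are given as a description. The genes closest to PHE1 were AT1G35430, PUB26 (a ubiquitin ligase gene) and AT1G67365, each with Pearson's r of 0.998, where the median over 533 candidates was 0.917. Closest to PHE2 were AT1G78030 at 0.997, CHX16 (a cation exchanger gene) at 0.996 and AT5G60130 at 0.996, with a median of 0.913. Closest to AGL102 were MES8 (a methylesterase gene) at 0.993, AT3G57540 at 0.990 and ZAT9 (a zinc finger gene) at 0.990, with a median of 0.858. Among the members, r was 0.964 between PHE2 and AGL102, above the medians for both genes; AGL102 would rank 94 for PHE2, and PHE2 would rank 56 for AGL102. It was 0.902 between PHE1 and PHE2 and 0.823 between PHE1 and AGL102, in each case below both medians.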

How the data were processed

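RNA was measured in 3 mrg1 mrg2 and 3 Col-0 libraries. Stranded libraries of ribosomal RNA-depleted total RNA gave single reads of 50 bases, per the labels' protocols. The submitters' processing notes name TAIR10 as the build and DESeq2 as a tool; neither aligner nor counting tool is given in the sources used here. For 552 listed genes the authors deposited raw counts, p-values, adjusted p-values and log2 fold changes (the mutant over Col-0).

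Size factors were recovered from 350 genes with at least 50 counts in every library, as those that best gave the authors' log2 fold changes. They lay between 0.954 and 1.07 (residual SD 6.58e-04, in log2), and the fit was tested on simulated data. Normalized counts are raw counts divided by them. The number of genes tested, 22995, was inferred from the p-values and adjusted p-values. The members and gene lists were chosen with earlier results of these data known, and the contrast that chose them was not tested again, so no edgeR or DESeq2 test was run; their scaling factors were tried as alternatives (edgeR 4.0.16, DESeq2 1.42.0).

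Named genes were the members, every listed gene of the fixed lists, the 2 coding genes on each side of a member and those between PHE2 and PHE1, the 3 listed genes (mean of at least 10 normalized counts) closest to each member by Pearson's r, and the mutated genes. Lists covered type I and type II MADS genes, endosperm and imprinted genes, and Polycomb and other chromatin regulators. They also covered DNA methylation genes, and seed, flower and pollen, and root markers. Relatives and a few list members not listed are named as examples, chosen after the tables were seen. Sequences and positions are from RefSeq TAIR10.1, whose strand matched that in the tables for all 549 listed genes with a position. Proteins and coding sequences were compared with Biopython 1.88. Sequence before the gene starts is not reported here.

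Libraries with the same replicate number were taken as pairs because their deviations from the genotype means correlated over 435 genes (r = 0.40, 0.55 and 0.32, against -0.42 to 0.02 for other pairs). Deviations cancel within a genotype, so positive values for same-number pairs force lower ones elsewhere. The values of the other pairs are therefore no separate evidence.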

Additional observations from a re-analysis of the deposited data

How the results depend on the processing

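PHE1, PHE2 and AGL102 stayed higher in mrg1 mrg2 under every alternative tried. With equal factors, left-out libraries, pairing or summed PHE counts, this direction was fixed in advance, because the groups did not overlap in these selected genes. It was also fixed with factors computed on the listed genes, which shift the genotypes by less than the smallest gap between groups (2.83 times, AGL102). All alternatives therefore bear only on the size of the change. With scaling factors computed on the listed genes alone, the log2 ratios of means were 1.67, 0.98 and 1.21 (TMM) and 1.69, 1.00 and 1.23 (median ratio) for PHE1, PHE2 and AGL102, against 2.67, 2.03 and 2.27; such factors absorb about 1 log2 unit because 531 of the 552 listed genes are higher, and so do not stand for library depth. With equal size factors the values were 2.67, 2.04 and 2.27. Leaving out each library in turn gave 2.37 to 3.20 for PHE1, 1.91 to 2.11 for PHE2 and 2.05 to 2.74 for AGL102. With the replicate number as a block, the mean log2 ratio of the pairs was 2.77 for PHE1, 1.91 for PHE2 and 2.33 for AGL102, the same values as the difference of mean log2(normalized count + 1) of 2.77, 1.91 and 2.33, since the numbers pair all libraries. PHE1 and PHE2 counts added together gave 2.57. The share of exonic windows found elsewhere was 6.89% for PHE1 and 8.07% for PHE2 with exact matches, and 15.9% and 18.6% with up to 2 mismatches. The numbers of listed genes in the 8 lists were the same with a log2 fold change of at least 1 and with a mean of at least 10 normalized counts. Depth limits PHE2 most, with 7 to 9 reads in each Col-0 library, and per-library depth is unknown from the listed genes.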
